A study of Mus musculus with 2 samples.

Results

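The genes described here encode enzymes of the pentose phosphate pathway and a pair of other cytosolic enzymes that make NADPH. Of the 20330 genes in the deposited expression table, 8 taken by name are described: Pgls and Pgd of the oxidative arm, Rpia, Rpe, Tkt and Taldo1 of the non-oxidative arm, and Me1 and Idh1. No measured value entered that choice, although results of these libraries were known when it was made. RNA was sequenced from adipose tissue macrophages (ATM), sorted by flow cytometry with F4/80 and CD11b antibodies from visceral fat of C57BL/6 mice after 12 weeks of high-fat diet. The WT library came from hMRP8cre-;Hif-1αfl/fl;ApoE-/- mice and the KO library from hMRP8cre+;Hif-1αfl/fl;ApoE-/- mice. Both genotypes are labelled as lacking ApoE, an apolipoprotein whose loss leaves cholesterol-rich particles in the blood, and both carried loxP-flanked Hif-1α alleles. The genotypes differed in the Cre recombinase, driven by the human MRP8 (S100A8) promoter, which is active in myeloid cells and is best known for its activity in granulocytes. There was 1 library per genotype, whether from a single animal or a pool was not stated, and the labels gave no age. The comparison asked how the loss of HIF-1α, the oxygen-regulated subunit of a transcription factor, changed gene expression in these macrophages. Every difference below is between a pair of libraries, without a replicate check and without a p-value.

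The pentose phosphate pathway branches from glycolysis at glucose 6-phosphate. Its oxidative arm makes NADPH, the cell's main reducing agent for lipid synthesis, for the regeneration of glutathione and thioredoxin, and for the phagocyte NADPH oxidase. Its non-oxidative arm interconverts sugar phosphates, so that ribose 5-phosphate can be drawn off for nucleotides or returned to glycolysis. In the cytosol, malic enzyme and NADP-dependent isocitrate dehydrogenase are further sources of NADPH.

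The libraries were checked against their labels. Hif1a, the targeted gene (ENSMUSG00000021109), measured 30.4 FPKM (fragments per kilobase of a transcript after correction for library size) in WT ATM and 20.97 in KO ATM. Its value covers the whole gene, whose deleted part is not resolved by a single level per gene. Apoe was listed at 94.3 FPKM in the WT library and 117 in the KO library although both are labelled ApoE-/-, and a level per gene does not show whether those fragments come from an intact transcript. The sorting markers Adgre1 (F4/80) and Itgam (CD11b) were at 299 and 128 FPKM in WT and at 239 and 128 in KO; the pairs of values that follow also give WT first. FPKM of the 9 macrophage markers in the table summed to 6588 in WT and 7011 in KO, of which Lyz2 made up 3936 and 4080. Below that sum, Mertk was at 38.0 and 88.1 FPKM and Fcgr1 at 49.3 and 21.9, in opposite directions. Of 9 neutrophil markers, 6 were tested and all 6 were higher in KO, with sums of 158 and 521 FPKM. Among these 6, Ngp and Retnlg reached 1 FPKM in KO alone, so they could only count as higher. S100a8 was at 73.3 and 182 FPKM and S100a9 at 63.4 and 301. Mmp8, Ltf and Camp were listed at 0 in both. Of 8 adipocyte markers, 5 were tested, with sums of 113 and 120 FPKM, and Adipoq, Plin1 and Retn were listed at 0 in both. Fabp4 made up 90.1 and 91.4 of the adipocyte sums, while Cidec was at 5.83 and 0 FPKM and Cfd at 0 and 7.11. All 5 tested of 6 fibroblast markers were higher in KO, with sums of 43.2 and 84.3 FPKM. Among them, Col1a2 and Pdgfra reached 1 FPKM in KO alone, so they could only count as higher. Marker sums were 13.6 and 16.0 FPKM for endothelial cells and 11.1 and 9.66 for red blood cells. Markers of B cells summed to 2.75 and 6.46 FPKM, with Cd79b at 0 and 5.52 and Cd79a at 2.50 and 0.222, and Pax5 at 0 in both. Markers of dendritic cells summed to 2.18 and 9.54 FPKM, with Zbtb46 at 0 and 9.45 and Xcr1 at 1.65 and 0.0588, and Clec9a at 0 in both. Of the T cell markers Cd4 was at 5.35 and 2.07 FPKM, and Cd3d, Cd3e, Cd3g and Cd8a were listed at 0 in both. The part of these cells in the differences of the 8 enzyme genes was not tested, and in a sorted bulk sample fewer cells of a type and less RNA per cell cannot be told apart. Depth, estimated from the smallest recurring FPKM step, was about 5860000 fragments in WT and 7470000 in KO, and for a transcript of 2 kb a count of 0 allowed up to 0.256 and 0.201 FPKM.

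Of the 8 genes, 7 were lower in the KO library and Tkt was higher. Differences are KO minus WT on the log2(FPKM + 1) scale, which understates the change of low genes. Genes counted as tested, 10297 in all, reached 1 FPKM in a library or in both; all 8 did so, and Rpe and Me1 reached it in WT alone. The median difference over the 8 genes was -1.38, against 0.03 over all genes tested. Leaving out any of the 8 in turn gave medians of -1.70 to -1.07. The 8 genes are not the whole pathway, so these counts and medians describe the genes named and not the pathway. Past 3-fold on this scale, 4 of the 8 were lower in KO (Me1, Rpe, Idh1 and Rpia), where 13.7% of all genes tested were lower by as much. Rpe and Me1 passed the filter through WT alone; among genes with at least 1 FPKM in WT and in KO, 2 of 6 were lower past 3-fold, against 5.89% of all such genes, and the median over the 6 was -1.06. None of the 8 was higher past 3-fold, against 13.6% of all genes tested. Past 2-fold, 6 were lower (Taldo1 and Pgls as well as those 4), against 22.5% of all genes, and none was higher, against 23.1%. In either direction at any size, 48.7% of all genes tested were lower and 51.3% were higher. Taking all 8 genes together, FPKM summed to 329.1 in WT and 177.9 in KO, a 1.85-fold lower sum in KO.

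**Figure D1:**
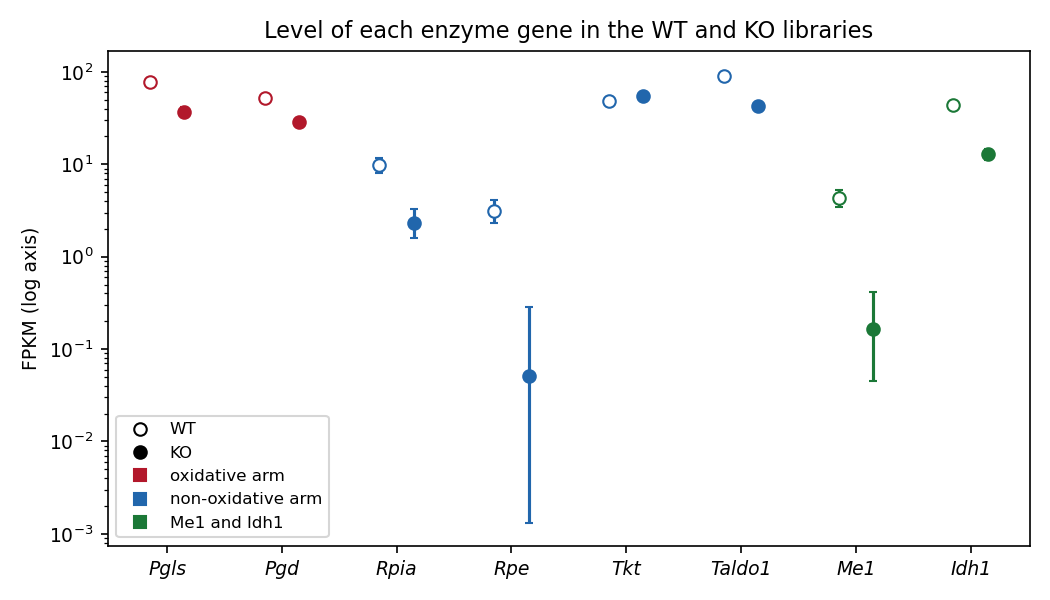
FPKM on a log axis of each of the 8 enzyme genes in the WT library (open circles) and the KO library (filled circles), coloured by arm, with 95% counting intervals from estimated fragment numbers; where no bar shows, the interval is within the symbol. Tkt sits higher in KO, and the other 7 genes sit lower, with Rpe and Me1 under 1 FPKM in KO.

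Both genes of the oxidative arm described here were lower in KO. Pgls, 6-phosphogluconolactonase, hydrolyses 6-phosphogluconolactone and stood at 77.6 FPKM in the WT library against 37.1 in the KO library, a difference of -1.04. WT over KO, its FPKM ratio was 2.09, with a 95% interval of 1.79 to 2.44 that covers counting error only, from about 444 and 271 estimated fragments. Pgd, 6-phosphogluconate dehydrogenase, makes NADPH and ribulose 5-phosphate and measured 51.7 FPKM in WT ATM and 28.8 in KO ATM, a difference of -0.82. WT over KO, the ratio of Pgd was 1.79, with a counting interval of 1.59 to 2.02, from about 671 and 477 fragments. The ratio of Pgls to Pgd within a library, which does not depend on how the libraries were scaled, was 1.501 in WT and 1.288 in KO. FPKM of the pair summed to 129 in WT and 65.9 in KO, a 1.96-fold lower sum.

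Exons shared with other genes were looked up, and their part in the values was not tested. In GENCODE M21 on GRCm38, Pgls (ENSMUSG00000031807), at chr8:71592176-71601092 on the plus strand, shares 776 exonic bases with Fam129c on the same strand, and Fam129c stood at 4.11 FPKM in the WT library against 0.110 in the KO library. Pgd (ENSMUSG00000028961), at chr4:149149991-149166771 on the minus strand, shares none with another listed gene. The bases shared with Fam129c are 20.6% of the exonic bases of Pgls. Fam129c was far below Pgls in both libraries and, like Pgls, was lower in KO.

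The non-oxidative arm had a single gene that was not lower in KO. Rpia, ribose-5-phosphate isomerase, turns ribulose 5-phosphate into ribose 5-phosphate and measured 9.75 FPKM in WT ATM and 2.31 in KO ATM, a difference of -1.70. WT over KO, its FPKM ratio was 4.22, with a counting interval of 2.76 to 6.36, from about 104 and 32 fragments. Rpe, ribulose-5-phosphate epimerase, makes xylulose 5-phosphate from the same substrate and had a WT level of 3.15 FPKM and a KO level of 0.0515, a difference of -1.98. The KO value of Rpe corresponds to about 1 fragment, against about 50 in WT. Its FPKM ratio of 61.2, WT over KO, accordingly had a counting interval of 10.9 to 2567. The enzymes at this branch point were thus both lower in KO.

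The transferases that follow differed from each other. Tkt, transketolase, moves units of a pair of carbons between sugar phosphates and stood at 48.7 FPKM in the WT library against 54.3 in the KO library, a difference of 0.15. KO over WT, the FPKM ratio of Tkt was 1.12, with a counting interval of 1.02 to 1.22. Taldo1, transaldolase, moves units with an additional carbon and measured 89.8 FPKM in WT ATM and 42.4 in KO ATM, a difference of -1.07. WT over KO, the ratio of Taldo1 was 2.12, with a counting interval of 1.87 to 2.40. Taldo1 was the most abundant of the 8 genes in WT and came behind Tkt in KO. Tkt was at 0.543 times the FPKM of Taldo1 in WT and 1.28 times in KO. The arm's FPKM summed to 151 in WT and 99.0 in KO, 1.53-fold lower, and Tkt made up 32.2% of that sum in WT and 54.8% in KO. Taldo1 and Pgls kept nearly the same ratio to each other, 1.16 in WT and 1.14 in KO.

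In the annotation Rpe (ENSMUSG00000026005) lies at chr1:66700831-66719805 on the plus strand, and 558 of its exonic bases, 17.9%, are also exonic in Kansl1l on the opposite strand. Kansl1l had a WT level of 3.21 FPKM and a KO level of 15.1, which is opposite in direction to Rpe. The library protocol names no step that marks strand. Without strand, fragments from the shared bases of this pair cannot be told apart, and how the authors' software divided them was not tested. Rpia (ENSMUSG00000053604) lies at chr6:70765720-70792232 on the minus strand and Taldo1 (ENSMUSG00000025503) at chr7:141392199-141402968 on the plus strand, and neither shares exonic bases with another listed gene. Tkt (ENSMUSG00000021957), at chr14:30548359-30574720 on the plus strand, shares 1 base with a microRNA. The transketolase-like genes were low or not detected: Tktl1 was at 1.38 FPKM in WT and listed at 0 in KO, and Tktl2 was listed at 0 in both.

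Idh1 and Me1, the cytosolic NADPH enzymes chosen from outside the pathway, were both lower in KO past 3-fold. Idh1, NADP-dependent isocitrate dehydrogenase, stood at 44.2 FPKM in the WT library against 12.9 in the KO library, a difference of -1.71. WT over KO, the FPKM ratio of Idh1 was 3.44, with a counting interval of 2.94 to 4.03, from about 593 and 220 fragments. Me1, malic enzyme, measured 4.29 FPKM in WT ATM and 0.164 in KO ATM, a difference of -2.19. Me1 rested on about 83 fragments in WT and 4 in KO, and its ratio of 26.3 had a counting interval of 9.95 to 99.3. FPKM of the pair summed to 48.5 in WT and 13.0 in KO, 3.72-fold lower, and Idh1 supplied 91.1% of that sum in WT.

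The mitochondrial relatives of these enzymes had smaller differences. Idh2, the mitochondrial NADP-dependent isocitrate dehydrogenase, had a WT level of 33.6 FPKM and a KO level of 32.1, so Idh1 went from 1.32 times the level of Idh2 in WT to 0.400 times in KO. Me2, a mitochondrial malic enzyme, stood at 10.5 FPKM in the WT library against 6.10 in the KO library, and Me1 went from 0.410 times the level of Me2 to 0.0268 times. Me3, the other mitochondrial malic enzyme, was listed at 0 in both libraries. Idh1 (ENSMUSG00000025950) lies at chr1:65158616-65186500 on the minus strand, and Me1 (ENSMUSG00000032418) at chr9:86581371-86695953 on the minus strand, where 30 of its exonic bases are also in an antisense RNA gene.

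**Figure D2:**
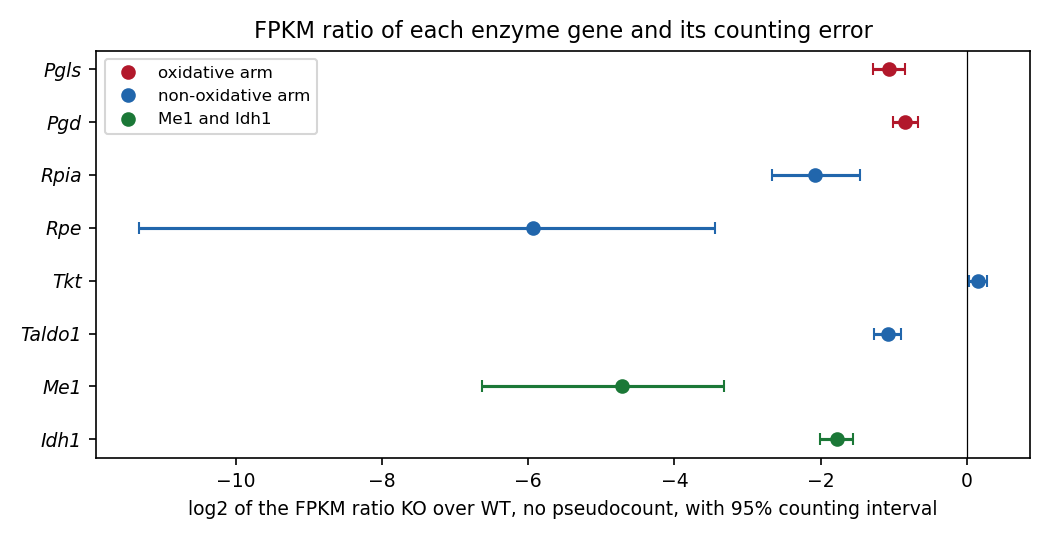
Log2 of the FPKM ratio of KO over WT for each of the 8 genes, without a pseudocount, with the 95% interval that counting error allows given the estimated fragments. The interval of Tkt begins just above 0, those of Rpe and Me1 are wide because their KO values rest on about 1 and 4 fragments, and all 7 lower genes lie wholly below 0.

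FPKM is per transcript length, so levels can be ordered across genes. In WT the order from high to low was Taldo1, Pgls, Pgd, Tkt, Idh1, Rpia, Me1 and Rpe. Counting intervals of the levels overlapped between Taldo1 and Pgls, between Pgd and Tkt, between Tkt and Idh1, and between Me1 and Rpe. In KO the order was Tkt, Taldo1, Pgls, Pgd, Idh1, Rpia, Me1 and Rpe, and intervals overlapped between Taldo1 and Pgls and between Me1 and Rpe. The spread between animals is not in these intervals. Tkt was above 85.6% of all genes tested in WT and above 87.2% in KO, whereas Idh1 was above 84.5% in WT and 58.2% in KO and Rpia above 51.8% and 21.4%.

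How unusual a difference of a given size was depended on the level of the gene. At a mean of 20 to 100 FPKM, the band of Pgls, Pgd, Tkt, Taldo1 and Idh1, 2378 genes were tested, and 12.2% of them were lower and 11.5% higher past 2-fold. Past 3-fold, which Idh1 alone of these 5 genes passed, 5.72% of the band were lower. At a mean of 5 to 20 FPKM, the band of Rpia, 13.3% of 3746 genes were lower past 3-fold. At a mean of 1 to 5 FPKM, the band of Rpe and Me1, 26.4% of 2905 genes were lower past 3-fold and 27.7% were higher. Differences past 3-fold were thus more frequent in the band of Rpe and Me1 than in the bands above it, in both directions. Median differences also moved with annotated transcript length, from -0.14 for genes under 1000 nt, where Pgls lies, and -0.12 at 1000 to 1500 nt, where Taldo1 lies, to 0.13 at 3000 to 4000 nt, where Tkt and Me1 lie.

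Start-site sequences were compared because 7 of the 8 genes differed in the same direction and Tkt did not. HIF-1 binds a short core written ACGTG or GCGTG, and NRF2, which drives many antioxidant genes, binds an antioxidant response element with the core TGACNNNGC. RefSeq windows on GRCm38.p6, each from 250 bases before to 50 bases after an annotated start, were found for all 8 genes and numbered 11, since Pgd, Me1 and Idh1 had 2 each. Below are the windows of Tkt, which was higher in KO (chr14:30548881-30549180, plus strand), of Taldo1, the most abundant in WT (chr7:141391910-141392209, plus strand), of Rpe, which held none of the cores (chr1:66700581-66700880, plus strand), and of Me1, which had the largest difference on the log2(FPKM + 1) scale though not in FPKM ratio (the first of its windows, chr9:86695865-86696164, minus strand). Each reads 5′ to 3′ on the gene's strand, and capitals mark a match to any of these cores on either strand.
Tkt: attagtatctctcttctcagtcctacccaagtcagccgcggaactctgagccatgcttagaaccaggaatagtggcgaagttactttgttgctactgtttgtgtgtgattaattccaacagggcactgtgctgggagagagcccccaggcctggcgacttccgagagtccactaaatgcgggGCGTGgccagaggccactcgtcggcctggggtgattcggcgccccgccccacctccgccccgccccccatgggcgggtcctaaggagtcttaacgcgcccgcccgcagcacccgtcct
Taldo1: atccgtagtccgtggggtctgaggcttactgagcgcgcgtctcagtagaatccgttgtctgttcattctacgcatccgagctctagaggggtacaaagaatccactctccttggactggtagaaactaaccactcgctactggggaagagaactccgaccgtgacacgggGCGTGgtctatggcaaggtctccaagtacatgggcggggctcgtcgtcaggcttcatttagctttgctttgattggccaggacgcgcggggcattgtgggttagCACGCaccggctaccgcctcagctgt
Rpe: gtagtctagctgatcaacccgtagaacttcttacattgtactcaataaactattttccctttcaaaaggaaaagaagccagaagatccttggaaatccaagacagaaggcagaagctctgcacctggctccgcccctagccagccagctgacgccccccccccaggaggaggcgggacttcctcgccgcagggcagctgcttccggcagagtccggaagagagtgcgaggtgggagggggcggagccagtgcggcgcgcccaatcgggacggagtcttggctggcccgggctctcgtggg
Me1: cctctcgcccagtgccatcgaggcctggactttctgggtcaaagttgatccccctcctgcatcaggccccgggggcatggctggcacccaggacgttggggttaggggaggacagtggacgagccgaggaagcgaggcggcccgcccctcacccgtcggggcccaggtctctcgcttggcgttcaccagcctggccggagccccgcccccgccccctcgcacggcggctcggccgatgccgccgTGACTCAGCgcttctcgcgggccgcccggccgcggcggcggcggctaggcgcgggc

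A HIF core was present in 8 of the 11 windows and in at least 1 window of 7 of the 8 genes, with Rpe the exception, and 43.8% of the 32851 RefSeq windows of this length held at least 1. By motif, 19.6% of all windows held ACGTG and 32.4% held GCGTG, on either strand. Counting the start site as 1 and the base before it as -1, Tkt had GCGTG at -68, and Taldo1 had it at -80 and its reverse complement at 25. So Tkt and 6 of the 7 genes that were lower in KO held a HIF core. Me1 held it only in its second window, at -98, and not in the first, which is printed above. The 43.8% is a share of windows and not of genes, and 3 of the genes had 2 windows in which a core could occur. The antioxidant core was found in the first window of Me1 at -6, as TGACTCAGC, and in a window of Pgd at 4, as TGACATTGC, against 12.4% of all windows. A match is a run of letters and not a measured binding site.

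Genes that feed and drain the pathway did not share a direction. Of 12 genes of pathway entry and exit, 11 were tested, 4 were higher and 7 lower, and the median difference was -0.42. Of all genes tested, 51.3% were higher and 48.7% lower. Among the 11, Tigar reached 1 FPKM in KO alone and Pgm1 (2.27 and 0.762 FPKM) in WT alone, so their directions were fixed by the filter. Gpi1, which takes glucose 6-phosphate into glycolysis, measured 171 FPKM in WT ATM and 128 in KO ATM. Among the hexokinases, which make glucose 6-phosphate, Hk2 had a WT level of 15.5 FPKM and a KO level of 5.41, whereas Hk1 was at 14.6 and 30.1 FPKM. H6pd, which runs the oxidative steps in the endoplasmic reticulum, stood at 6.58 FPKM in the WT library against 12.1 in the KO library. Prps1 and Prps2, which turn ribose 5-phosphate into the nucleotide precursor PRPP, were at 14.8 and 11.0 FPKM in WT and at 10.7 and 7.75 in KO. Tigar, a fructose bisphosphatase that slows glycolysis, was listed at 0 for WT, with a KO level of 4.45 FPKM. Across the 16 genes of core glycolysis, 7 were higher and 9 lower, with a median difference of -0.17. Past 2-fold, Tpi1 was lower (146 FPKM in WT and 56.5 in KO), as was Hk2, while Pfkl (3.55 and 14.8), Slc2a1 (15.4 and 42.0) and Pfkm (0.478 and 3.20) were higher. Pfkm reached 1 FPKM in KO alone, so it could only count as higher. Of all genes tested, 23.1% were higher and 22.5% lower past 2-fold.

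Other sources of NADPH, together with the NAD kinases, made a list of 12 genes. Of these, 11 were in the table, and their median difference was 0.07 with no filter on level. It was 0.49 over the 8 genes tested, of which Mthfd1, Mthfd1l and Mthfd2 passed the filter through KO alone. Nadk, the cytosolic kinase that makes NADP from NAD, measured 46.6 FPKM in WT ATM and 82.2 in KO ATM. Mthfd1, the cytosolic enzyme of folate metabolism that also yields NADPH, was listed at 0 for WT, with a KO level of 6.60 FPKM. Idh2 and Me2 were the tested genes of the list that were lower.

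Genes listed around NADPH use and the NRF2 axis shared no direction, and not all of them encode enzymes that use NADPH. The 5 genes of the phagocyte NADPH oxidase described here (Cybb, Cyba, Ncf1, Ncf4 and Rac2) differed by -0.22 to 0.33, 4 of them higher and 1 lower, with none past 2-fold; at a mean of 100 FPKM or more, where Cyba, Cybb and Ncf1 lie, 2.81% of all genes were higher and 4.95% lower past 2-fold. Of 12 glutathione and thioredoxin genes, 6 were higher and 6 lower. Prdx5, a peroxiredoxin, had a WT level of 62.1 FPKM and a KO level of 25.2, while Gsr, glutathione reductase, had 0.190 FPKM in WT and 3.44 in KO. Txnrd1 and Txnrd2, the thioredoxin reductases of cytosol and mitochondria, were at 78.7 and 10.7 FPKM in WT and at 126 and 17.0 in KO. Of 10 genes of fatty acid and sterol synthesis, 9 were tested, 6 higher and 3 lower. Scd1, a fatty acid desaturase, stood at 3.77 FPKM in the WT library against 24.1 in the KO library, whereas Sqle, which oxidises squalene, was at 6.20 in WT and listed at 0 in KO. Of 10 genes of the NRF2 axis, 7 were higher and 3 lower, with a median difference of 0.56. Beside the counts of these lists, 51.3% of all genes tested were higher and 48.7% lower. Nqo1, a quinone reductase that uses NADPH or NADH, was at 18.3 FPKM in WT and listed at 0 in KO. Nqo1 and Sqle reached 1 FPKM in WT alone, so they could only count as lower. Gsr reached it in KO alone, so it could only count as higher. The small MAF proteins Mafk and Mafg, partners of NRF2, were higher in KO, at 37.5 and 103 FPKM for Mafk and at 9.49 and 23.6 for Mafg, while Maff, the other small MAF gene of the list, was at 96.8 and 52.3 FPKM.

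**Figure D3:**
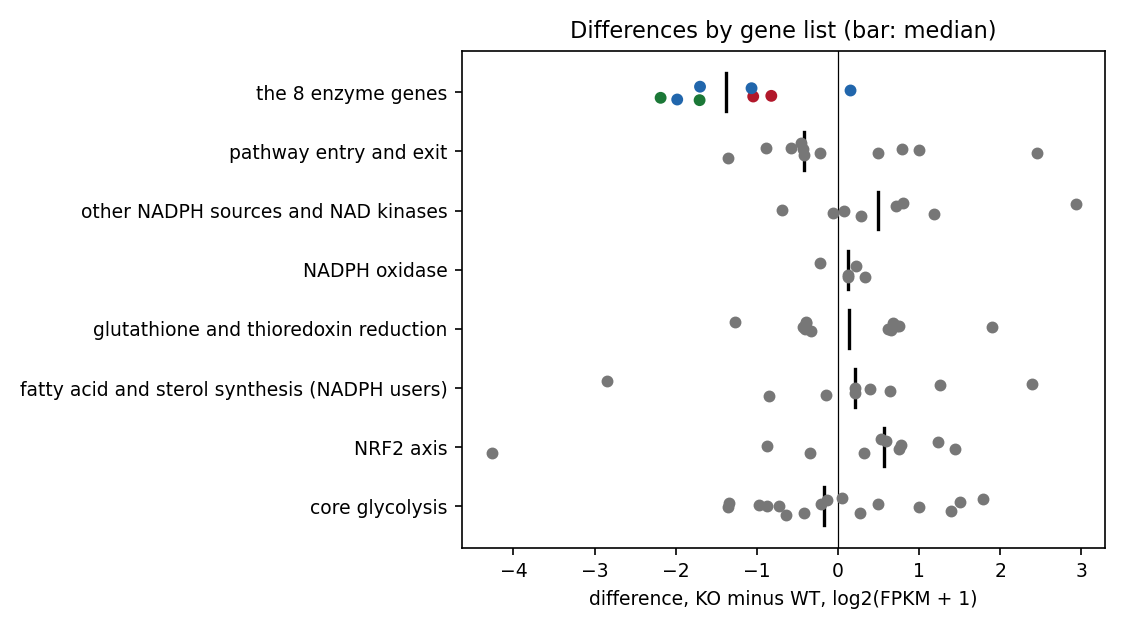
Difference between KO and WT on the log2(FPKM + 1) scale of each tested gene of the 8 enzyme genes (coloured by arm) and of 7 gene lists (grey), with the median as a bar. The 8 enzyme genes have a median of -1.38, core glycolysis one of -0.17 and the NADPH oxidase one of 0.12.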

How the data were processed

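Poly(A) RNA of sorted ATM was fragmented, copied with random primers, amplified by PCR and sequenced. The authors deposited 1 table of FPKM values, 1 column per library. The submitters' processing notes name CASAVA 1.8.2, TopHat2 2.0.9, Cufflinks 2.2.1 and the mouse build mm9. The annotation and any filter are not given in the sources used here. The mutant column was taken as KO, since no other library was not WT. FPKM is already divided by length and depth, so no count model was used.

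Of 20749 rows, 401 exact repeats were dropped and 18 were summed into their identifier. This left 20330 genes, 98.5% with a symbol in GENCODE M21 (GRCm38). Coordinates and lengths describe that build. Differences were log2(FPKM + 1), KO minus WT, for genes reaching 1 FPKM in either library, and 3-fold was the threshold. With 1 library per genotype no test was run, and if the libraries differ by more than genotype this cannot be told apart. In genes with a single transcript, FPKM times length in kb has a smallest recurring value, taken as 1 fragment. It was 0.171 in WT (18 genes at it, 3 below) and 0.134 in KO (20 genes at it). Exact 95% intervals on the fragments estimated from it cover counting error only. They treat the estimated fragments as independent counts, which PCR copies are not, so they may be too narrow even for that. The floor of a count of 0 was 3 fragments. The calculations were tested on simulated data (Python 3.11.15, pandas 2.3.3, numpy 2.4.6, scipy 1.17.1, matplotlib 3.10.9).

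The enzyme genes, gene lists and markers were chosen with earlier results of these data known. All 8 enzyme genes described were named. Some genes of these lists are not reported here, and every count, sum and median leaves them out. Other list genes were named if their FPKM reached 5 in a library and the difference passed 2-fold, at most 4 per list; paralogs and the other list genes given were named after their values were seen. Cd68, Nnt, Trac and Hba-a1 were not found by symbol and not analysed here. Alternatives were other pseudocounts, filters, thresholds and scalings, and, chosen after seeing the data, differences relative to genes of like length.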

Additional observations from a re-analysis of the deposited data

How the results depend on the processing

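The directions of all 8 enzyme genes and of their median were kept under every pseudocount, filter and scaling tried that left the gene in, and relative to genes of like transcript length, where the difference of Tkt was 0.02. Scaling to the same FPKM sum, upper quartile or median ratio shifted differences by 0.04, 0.01 or -0.03. The count of enzyme genes lower past 3-fold was 4 of 8, against 13.7% of all genes. It became 2 of 6 when both libraries had to reach 1 FPKM, against 5.89% of all genes, and 2 of 6 with a mean FPKM of at least 5, against 9.40%, since both filters remove Rpe and Me1. With a pseudocount of 0.1 or 0.01, the difference was -4.42 or -5.68 for Rpe and -4.06 or -4.63 for Me1. The median of the glutathione and thioredoxin list, 0.14, became -0.34 under each of these filters, which remove Gsr. No paired analysis was possible because there is 1 library per genotype, and for the same reason no replicate could be left out. Depth limits Rpe and Me1 most, since their KO values rest on about 1 and 4 fragments.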
